A study of Homo sapiens with 8 samples.

Results

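2 short hairpin RNAs against the same gene, shCDK2 #10 and shCDK2 #1, were set against each other in NB4, a human cell line from acute promyelocytic leukaemia, on the day 2 and the day 5 array of each hairpin. This used 4 of the 8 arrays of the series, chosen by hairpin number and day on their labels, and no scramble array. Both groups were NB4 cells given lentivirus at a multiplicity of infection of 10 and taken after 2 or 5 days. They differed in the hairpin carried: shCDK2 #1 at day 2, shCDK2 #1 at day 5, shCDK2 #10 at day 2 and shCDK2 #10 at day 5, with 1 array each. The other 4 arrays were the scrambled control and shCDK2 #3 on the same days. The labels do not state a promoter for the hairpins, a selection step or separate cultures, and name no hairpin sequence. The study set out to follow CDK2 loss through early and late differentiation of a myeloid line, and this comparison asks which mRNAs differ between cells given different hairpins against that gene.

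CDK2 is a cyclin-dependent kinase that, with cyclin E and cyclin A, drives entry into and passage through DNA replication. A short hairpin RNA is cut by Dicer and loaded into an Argonaute protein, which then lowers mRNAs that pair with the loaded strand, and hairpins against one gene share the target but not the sequence. Myeloid cells carry sensors of foreign RNA and DNA that switch on interferon genes, and their chemokine, Fc receptor and granule genes change as promyelocytes mature. Low oxygen stabilises HIF factors, which raise glycolytic enzymes and a further set of genes including prolyl hydroxylases and lipid droplet proteins.

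All values are log2 signals, so a difference of 1 is a 2-fold change, and levels of different genes were not compared because each probe set binds differently. Array medians ranged from 6.30 to 6.43. The promyelocyte gene MPO (myeloperoxidase) stood between 13.37 and 14.18 on the 4 arrays compared and PRTN3 (proteinase 3) between 9.76 and 10.73, while ELANE (neutrophil elastase) stood between 5.89 and 6.34, near 5.83, the filter value that a gene's mean over 8 arrays had to pass to be tested, and CD33 did not pass it. Outside the comparison, the shCDK2 #3 array of day 2 went against its label on CDK2. On the brightest of the 3 CDK2 probe sets it had 9.03, close to 9.10 for the day 2 scramble array. The day 5 scramble array had 8.19 there, below its day 2 counterpart. Its CDK2 was still the highest of the day 5 arrays on all 3 probe sets. On the dimmest it had 7.53, beside 7.51 for the day 2 scramble array. Whether the labels of the shCDK2 #3 array of day 2 and the day 5 scramble array were exchanged was not tested. Over all probe sets, r was 0.993 between the 2 arrays of #1, 0.982 between those of #10, 0.980 between the hairpins at day 2 and 0.969 at day 5. The #1 array at day 2 and the array labelled scramble at day 5 had an r of 0.994, above that between the 2 arrays of #1.

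CDK2 mRNA did not separate the hairpins. On the brightest of its 3 probe sets CDK2 stood at 7.78 and 7.89 with #1 at days 2 and 5, and at 7.54 and 8.08 with #10, so the arrays of the hairpins overlapped. The level with #10 was 85.2% of that with #1 at day 2 and 115% at day 5. The difference over both days was -0.02 (SE 0.15, 95% interval -0.41 to 0.37, adjusted p = 0.941), and its sign turned with median centring or with the mean of the probe sets. On the next brightest the levels were 7.36 and 7.42 with #1 and 7.28 and 7.81 with #10, a difference of 0.16 (SE 0.16, adjusted p = 0.493). On the dimmest the levels were 7.18 and 7.34 with #1 and 7.03 and 7.30 with #10, a difference of -0.10 (SE 0.12, adjusted p = 0.581). The intervals leave room for a difference of either sign, so equal loss was not shown. At day 5 the 8.08 with #10 was close to the 8.19 of the array labelled scramble, and CDK2 protein was not measured here.

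**Figure D1:**
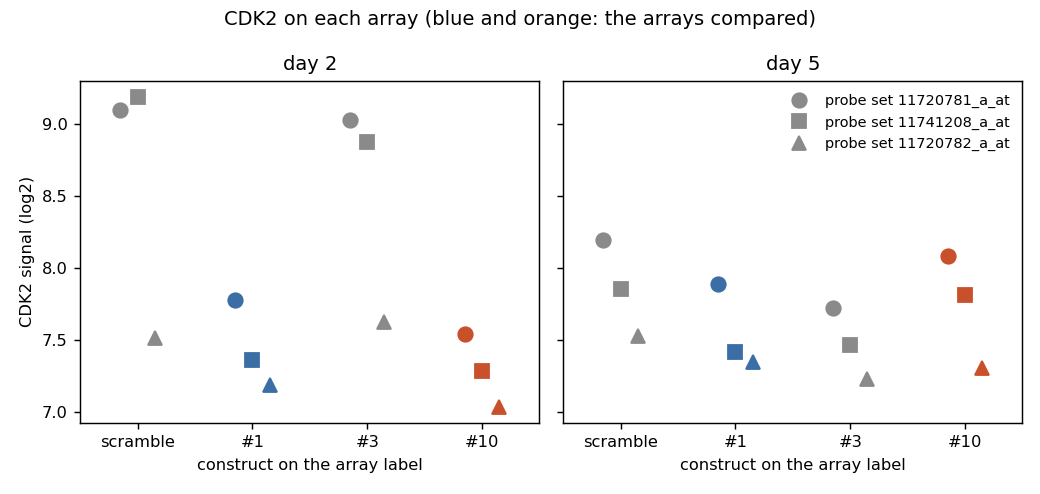
CDK2 log2 signal on its 3 probe sets (symbols) for each construct, at day 2 on the left and day 5 on the right, 1 array per point. The #1 arrays (blue) and #10 arrays (orange) lay within 7.03 to 8.08 on both days, and the array labelled shCDK2 #3 at day 2 lay beside the scramble array.

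Beyond CDK2 the hairpins differed widely, and the large differences ran towards #10. Of 12845 genes tested with limma on the 4 arrays, 1162 were higher and 374 lower with #10 at an adjusted p under 0.05, which is 12% of the genes tested (9.05% higher and 2.91% lower). A difference of at least 1 was reached by 547 of the genes called higher and 16 of those called lower, and one of at least 2 by 111 and by 1 (PIR). The median over all genes tested was -0.08, with 4057 genes above 0 on both days, 6054 below 0 on both days and 2734 of opposite sign. Both #10 arrays lay above both #1 arrays for 1124 of the 1162 genes called higher, as they did for 3147 of all genes tested. Of the genes called higher, 40 were under the filter value in both #1 arrays and were tested only because other arrays were bright, so their differences are against a dim probe set. With quantile normalization the calls were 1060 higher and 725 lower, so the higher share went from 75.7% to 59.4%. In such bulk RNA, fewer cells of a type and less RNA per cell cannot be told apart.

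These calls rest on how steady a gene's hairpin difference was from day 2 to day 5, because each hairpin has 1 array a day and the fit keeps 1 residual degree of freedom. When the spread was taken from all 6 arrays labelled with a hairpin, including the shCDK2 #3 array at day 2 with CDK2 at the scramble level, no gene was called (1854 at an unadjusted p under 0.05, smallest adjusted p 0.157), and with all 8 arrays 42 were called, 41 higher and PIR lower, all 42 among the calls above. With the 8 arrays less the one labelled shCDK2 #3 at day 2 there were 612 calls, all 612 among those above. Without the day block 142 genes were called higher and 5 lower. Leaving out 1 compared array from the 8-array fit gave 123 higher and 1 lower without #1 at day 2, 153 and 1 without #10 at day 2 and none without #1 or #10 at day 5. An exact permutation test on a single gene with 2 arrays against 2 cannot give a two-sided p below 0.333. A call below is therefore of the 4-array fit unless the 8-array fit is named.

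**Figure D2:**
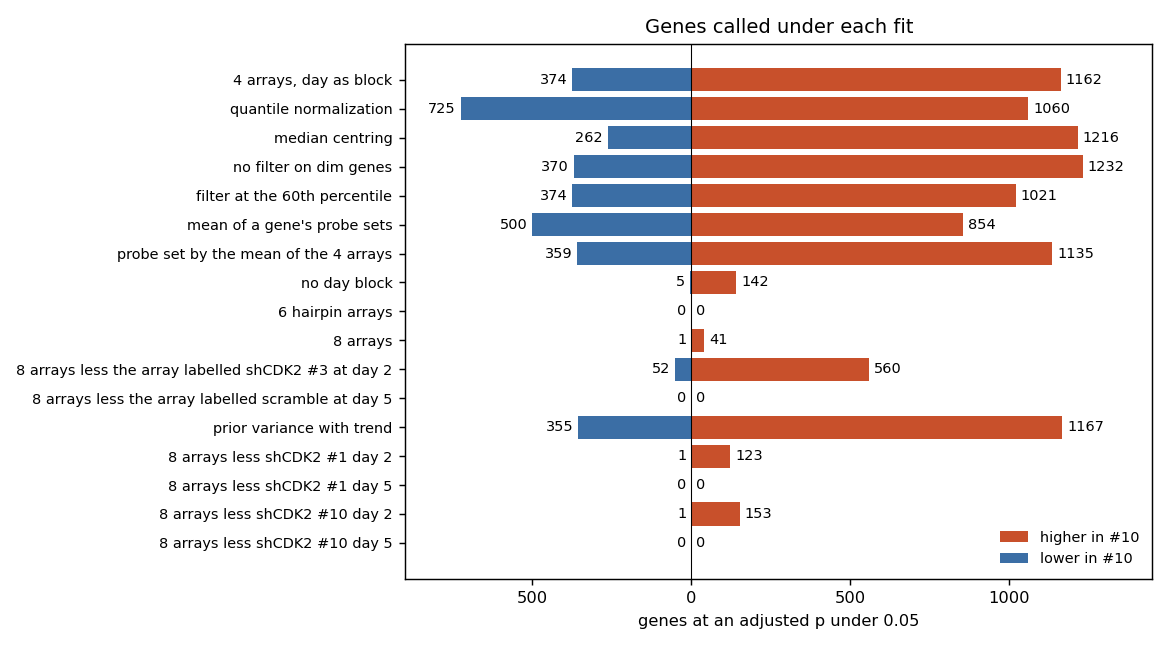
Genes at an adjusted p under 0.05 under each fit, higher with #10 to the right (orange) and lower to the left (blue). The 4-array fit gave 1162 and 374, the 8-array fit 41 and 1, and the 6 hairpin arrays gave none.

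The 15 largest differences called towards #10 ranged from 3.51 to 5.18. SPP1, which encodes osteopontin, stood at 8.60 and 8.56 with #1 at days 2 and 5 and at 12.82 and 14.71 with #10, a difference of 5.18 (SE 0.47, adjusted p = 0.0133). FCGR2B, an inhibitory receptor for IgG whose sequence is nearly shared with FCGR2C, stood at 6.34 and 6.21 against 10.74 and 12.07 (5.13, SE 0.36, adjusted p = 0.0093). SERPINA1, the inhibitor of neutrophil elastase, stood at 6.66 and 6.61 against 10.62 and 12.64 (4.99, SE 0.49). For all 3 genes the #1 arrays lay close together and both #10 arrays lay above them, day 5 above day 2. FCGR2B was also called in the 8-array fit (adjusted p = 0.0424), while SPP1 (0.093) and SERPINA1 (0.0678) were not.

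The other 12 of the 15 differed by 3.51 to 4.60, and 4 of them (PTX3, C5AR1, NEDD9 and CLEC2B) were under the filter value in both #1 arrays, so they passed it only through brighter arrays and the sizes given are against dim probe sets. PTX3, a soluble pattern recognition protein, stood at 4.17 and 4.25 with #1 and at 7.79 and 9.84 with #10. IL1B and IL1A, the interleukin-1 genes, differed by 4.58 and 3.91, and the chemokine gene CCL3 by 4.30. ZFP36L1, which binds AU-rich mRNAs and speeds their decay, stood at 6.50 and 7.20 against 10.68 and 11.98 (4.48, SE 0.18) and was called with 8 arrays too (adjusted p = 0.0472). C5AR1, the receptor for complement C5a, stood at 4.53 and 4.95 against 8.60 and 8.98 (4.05). NEDD9, a docking protein of integrin signalling, stood at 5.24 and 5.03 against 9.01 and 8.82. For C5AR1 and NEDD9 the #10 difference was of like size on both days, in contrast to IL1B, whose #10 level went from 11.16 to 13.69. TNFSF10, the death ligand TRAIL, differed by 4.02, GBP2, an interferon-induced GTPase, by 3.85, the kinase SGK1 by 3.66, the lectin CLEC2B by 3.53 and the cholesterol exporter ABCA1 by 3.51.

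The 15 largest differences called away from #10 were smaller, from -2.12 to -1.04. PIR (pirin), an iron-binding nuclear protein, stood at 8.62 and 8.74 with #1 and at 6.42 and 6.70 with #10, a difference of -2.12 (SE 0.12, adjusted p = 0.0084, and 0.0424 with 8 arrays). NQO1, a quinone reductase, stood at 10.33 and 10.22 against 8.49 and 8.99 (-1.53, SE 0.18). PIR and NQO1 are both known NRF2 target genes, and their 2 arrays per hairpin did not overlap. FOXM1, a transcription factor of mitotic genes, stood at 8.12 and 8.59 against 7.16 and 7.30 (-1.13). CCNA2 (cyclin A2, a CDK2 partner) stood at 10.51 and 10.57 against 9.40 and 9.46 (-1.11, SE 0.11), and PLK1, a mitotic kinase, at 8.88 and 9.17 against 8.0 and 7.96 (-1.05). The other 10 were FAM83D, HDGF, SNORA26, GRWD1, TROAP, SLC7A11, PEMT, CTPS1, DLEU2 and GOT2, between -1.14 and -1.04. They include a ribosome assembly factor (GRWD1), the cystine transporter (SLC7A11) and an enzyme of CTP synthesis (CTPS1).

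**Figure D3:**
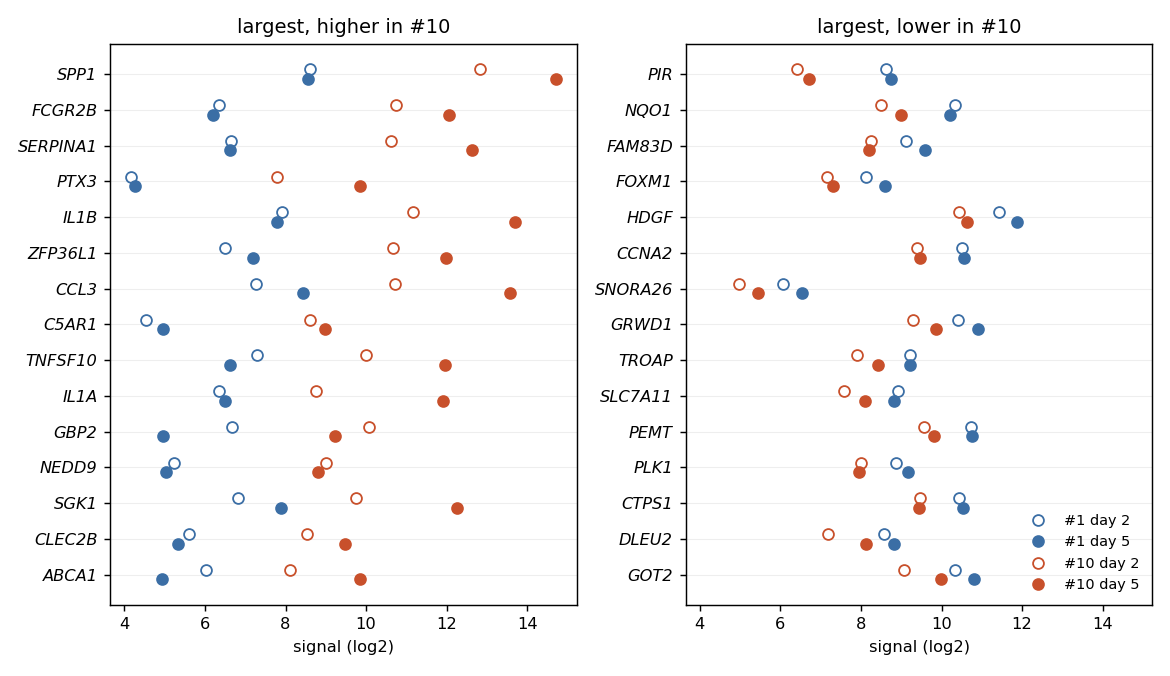
Log2 signal of the 15 genes with the largest difference called higher (left) and called lower (right) on the 4 arrays, #1 in blue and #10 in orange, day 2 open and day 5 filled. Towards #10 the gap reached 5.18 (SPP1), and away from it 2.12 in size (PIR).

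Genes of low oxygen made up the group with the highest share of calls among the 28 lists described. Outside glycolysis, 18 of 25 tested members of the hypoxia-inducible list were called higher (72.0%, against 9.05% of all genes tested) and none lower, with a median difference of 1.66 (1.77 at day 2 and 1.84 at day 5), or 1.34 over all members measured, 3 of which were under the filter. In the 8-array fit 9 of the 25 were called. P4HA1, a collagen prolyl hydroxylase subunit, stood at 9.61 and 8.33 with #1 and at 12.43 and 11.22 with #10 (2.86, SE 0.11, adjusted p = 0.0078). SPAG4 differed by 3.11, the lipid droplet gene HILPDA by 2.83 and the circadian repressor BHLHE41 by 2.48. Of 21 glycolysis genes tested, 10 were called higher (47.6%) and none lower. Their median was 0.44 (0.23 at day 2 and 0.68 at day 5). HK1, the first enzyme of the path, stood at 7.14 and 7.54 against 9.80 and 10.70 (2.91), and ALDOC (aldolase C) at 9.18 and 9.29 against 11.81 and 11.71 (2.52, SE 0.12). ENO2 (2.21) and PFKFB4 (2.09) completed the 4 glycolysis genes named by size, all 4 called in the 8-array fit as well. The oxygen level of the cultures was not among the values given.

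The core word of a HIF site, ACGTG on either strand, was searched in RefSeq promoter windows of 300 bases that end just past the annotated start (GRCh38.p14). It was in 13 of 24 promoters of the hypoxia list and 8 of 22 of the glycolysis list, against 21.6% of all 27305 promoters and 25.3% of those of genes tested. Its share was 27.7% among all genes called higher and 27.4% among those called lower. The promoters of P4HA1 (chr10:73096817-73097116, minus strand) and ALDOC (chr17:28576846-28577145, minus strand) are shown because both genes were named by size and hold the word, which is in capitals.
P4HA1: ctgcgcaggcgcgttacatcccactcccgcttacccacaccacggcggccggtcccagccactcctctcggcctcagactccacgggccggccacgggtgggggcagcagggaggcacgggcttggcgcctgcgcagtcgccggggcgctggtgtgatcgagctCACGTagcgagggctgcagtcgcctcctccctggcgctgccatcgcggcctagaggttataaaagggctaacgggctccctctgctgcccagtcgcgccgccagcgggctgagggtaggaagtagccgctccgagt
ALDOC: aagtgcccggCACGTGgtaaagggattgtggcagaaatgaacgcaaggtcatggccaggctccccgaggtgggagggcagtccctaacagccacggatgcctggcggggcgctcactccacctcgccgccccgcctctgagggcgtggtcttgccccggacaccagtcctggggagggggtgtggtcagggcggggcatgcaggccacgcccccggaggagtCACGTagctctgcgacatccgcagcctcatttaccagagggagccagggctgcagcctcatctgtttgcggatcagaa

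Interferon-stimulated genes lay towards #10 by more at day 5 than at day 2. All 32 tested interferon-stimulated effectors had a difference above 0. On both days 27 were above 0 (84.4%, against 31.6% of all genes tested). The median went from 0.67 at day 2 to 2.81 at day 5 (1.67 over both, 1.59 over all measured). The test called 4 of the 32 higher (12.5%, near the 9.05% of all genes tested) and none lower, in a fit whose error takes in any change of the gap between the days, and none in the 8-array fit. GBP2 stood at 6.66 and 4.95 with #1 and 10.08 and 9.23 with #10 (3.85, SE 0.23), and IFIT2, which binds viral RNA, at 7.10 and 6.27 against 9.42 and 10.82 (3.44, SE 0.53). IFIT1, of the same family, stood at 6.93 and 6.32 against 8.85 and 12.53, a difference of 4.07 that was not called (SE 1.01, adjusted p = 0.068), and CMPK2 had 3.17 (adjusted p = 0.0782). BST2, the tetherin that holds budding virions, was named after its value was seen for the sequence below, at 9.97 and 9.29 against 11.33 and 12.64 (2.35, adjusted p = 0.0481).

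Upstream of these, 5 of 16 sensors and interferon transcription factors were called higher (31.25%, against 9.05% of all genes tested). The median was 0.92 (0.37 over all measured, 5 under the filter). IFI16, a DNA sensor, stood at 7.27 on both #1 arrays and at 9.54 and 10.87 with #10 (2.93, SE 0.33). IRF9, the DNA-binding subunit of the interferon-activated complex, differed by 2.54 (SE 0.21), with 2.16 at day 2 and 2.92 at day 5. The RNA sensor genes RIGI (3.04, adjusted p = 0.0683) and IFIH1 (2.05, adjusted p = 0.0503) did not pass. Of the 16, 12 lay above 0 and 4 below, against 5270 and 7575 of all genes tested. Another DNA sensor gene, CGAS, named after its value was seen, had -0.66 (adjusted p = 0.0522) and was not called. Of 10 interferons, receptors and kinases tested, 4 were called higher: IFNGR2 (1.26), IFNGR1 (1.12), JAK1 (0.91) and IFNAR2 (0.68). Of 14 genes of MHC class I antigen processing, 8 were called higher (57.1%). The median was 0.71 (0.78 at day 2 and 0.79 at day 5). TAP1, a peptide transporter subunit, stood at 8.50 and 8.47 against 9.71 and 11.11 (1.92), and the immunoproteasome gene PSMB9 at 8.87 and 8.47 against 10.02 and 10.46 (1.57). HLA-B and HLA-E each differed by 1.52, and probes of HLA genes can bind more than one of them.

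The core of the interferon-stimulated response element, GAAANNGAA on either strand, was in 22 of 31 promoters of the effector list (71.0%), 7 of 12 of the MHC class I list and 5 of 14 of the sensor list. It was in 8.29% of all promoters, 6.10% of those of genes tested, 7.71% of those of all genes called higher and 4.78% of those called lower. The promoters of BST2 (chr19:17405581-17405880, minus strand) and TAP1 (chr6:32853655-32853954, minus strand) are shown as called members that hold it, with the element in capitals. The windows of TAP1 and PSMB9 overlap on opposite strands, and that of PSMB9 does not hold these letters.
BST2: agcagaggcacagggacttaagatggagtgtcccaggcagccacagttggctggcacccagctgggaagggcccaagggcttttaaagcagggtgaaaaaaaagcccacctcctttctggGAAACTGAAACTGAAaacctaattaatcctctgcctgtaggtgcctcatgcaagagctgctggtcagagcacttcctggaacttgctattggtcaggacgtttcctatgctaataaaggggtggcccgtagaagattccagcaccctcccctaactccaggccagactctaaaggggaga
TAP1: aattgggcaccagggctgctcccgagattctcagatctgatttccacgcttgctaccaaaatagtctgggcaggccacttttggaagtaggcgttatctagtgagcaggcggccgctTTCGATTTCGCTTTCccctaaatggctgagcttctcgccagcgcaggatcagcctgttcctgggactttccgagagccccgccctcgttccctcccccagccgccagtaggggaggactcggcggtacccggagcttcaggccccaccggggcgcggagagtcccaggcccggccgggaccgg

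Chemokine and cytokine genes also had a larger median at day 5. Of 24 chemokine and cytokine genes tested, 6 were called higher (25.0%, against 9.05% of all genes tested) and none lower. The 6 were IL1B, CCL3, TNFSF10, IL1A, CCL5 and CXCL8. Of the 24, 16 lay above 0 and 8 below, against 5270 and 7575 of all genes tested. Among the 8 were TNF (-0.12) and IL6 (-0.23), named after their values were seen and not called. The list median was 0.34 at day 2 and 2.01 at day 5. Of 14 genes of NF-kB subunits and feedback, 5 were called higher (35.7%), with a median of 0.54. NFKBIZ, a nuclear co-regulator of NF-kB, stood at 6.44 and 6.22 with #1 and at 8.44 and 9.82 with #10 (2.80, SE 0.39), and TNFAIP3, the inhibitor A20, differed by 2.08. NFKBIA, which holds NF-kB in the cytoplasm, differed by 1.10 and CYLD by 1.07. Of 24 immediate early and ZFP36 family genes, 8 were called higher (33.3%) and EGR1 lower. DUSP5 differed by 2.83, and JUN, an AP-1 subunit, stood at 7.11 and 8.13 against 9.38 and 10.96 (2.55, SE 0.17).

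Of 21 tested granulocyte maturation genes 8 were called higher (38.1%, against 9.05% of all genes tested) and none lower, with a median of 0.80 (0.33 over all measured, 10 under the filter). ITGAM, the integrin CD11b, stood at 7.70 and 7.57 with #1 and at 11.16 and 10.20 with #10 (3.04, SE 0.22, adjusted p = 0.0099), and S100A9, a calprotectin subunit, differed by 2.34. TCN1, a specific granule protein, stood at 5.94 and 5.87 against 5.80 and 10.83, so its difference came from day 5 (adjusted p = 0.217). Of 17 promyelocyte and progenitor genes 3 were called higher (17.6%) and 1 lower, with a median of -0.13. CFD, complement factor D, differed by 2.06 and the transcription factor gene GATA2 by 1.25, while PRTN3 was lower by its -0.79 (adjusted p = 0.037). Of 10 Fc receptor and lectin genes tested, 5 were called higher, among them CD69 (3.24) and the signalling chain FCER1G (2.63), and the median of 1.43 was 0.55 over all measured members, 8 of which were under the filter.

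Cell cycle genes lay the other way, by smaller amounts. Of 46 E2F and DNA replication genes tested, 44 had a difference below 0. On both days 42 were below 0 (91.3%, against 47.1% of all genes tested). In this list 14 were called lower (30.4%, against 2.91% of all genes tested) and none higher. The median was -0.41 against -0.08 for all genes. CDC25A, the phosphatase that activates CDK2, stood at 9.89 and 10.31 with #1 and at 9.06 and 9.48 with #10 (-0.83, SE 0.11, adjusted p = 0.0234), and GINS1, of the replicative helicase, at 10.12 and 10.42 against 9.40 and 9.70 (-0.72). UHRF1 had -0.80 and GINS3 -0.77. Of 49 G2/M genes, 48 had a difference below 0, and 45 were below 0 on both days (91.8%, against 47.1% of all genes tested). In this G2/M list 17 were called lower (34.7%), with a median of -0.50, led by FOXM1, CCNA2, PLK1 and CCNB1 (-1.0). None of the 46 and none of the 49 was called in the 8-array fit, where the adjusted p was 0.152 for CDC25A and 0.0713 for CCNA2. Among 31 CDKs, cyclins, inhibitors and RB family genes, 5 were called higher (16.1%, against 9.05% of all genes tested) and 3 lower (9.68%, against 2.91%). Their median was -0.09. The 5 included the CDK inhibitor CDKN1A (p21, 7.87 and 8.09 against 9.16 and 10.72, 1.96) and CCND1 (1.23). Also among the 5 was the CDK inhibitor CDKN1B (p27, 8.13 and 7.84 against 9.44 and 9.04, 1.26). CCNA1, which encodes cyclin A1, had 2.03 and was not called (adjusted p = 0.101). CDKN1A also stood in the p53 list, of which 6 of 23 tested members were called higher (26.1%). Among them were GADD45A at 1.25, TNFRSF10B at 1.19 and BBC3 at 1.0, and the list median was 0.33.

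The E2F word TTTNGCGC, on either strand, was in 17 of 41 promoters of the E2F list and 2 of 42 of the G2/M list, against 1.83% of all promoters and 2.74% of those of genes tested. It was in 5.41% of the promoters of all genes called lower and 1.98% of those called higher. The promoters of CDC25A (chr3:48188368-48188667, minus strand) and GINS1 (chr20:25407423-25407722, plus strand) are shown because both were named by size and hold the word, in capitals.
CDC25A: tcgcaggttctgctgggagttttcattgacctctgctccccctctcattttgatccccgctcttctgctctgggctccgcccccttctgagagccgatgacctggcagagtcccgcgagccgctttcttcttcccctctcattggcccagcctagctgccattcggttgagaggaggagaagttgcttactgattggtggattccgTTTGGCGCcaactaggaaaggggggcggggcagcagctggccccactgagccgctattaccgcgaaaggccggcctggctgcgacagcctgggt
GINS1: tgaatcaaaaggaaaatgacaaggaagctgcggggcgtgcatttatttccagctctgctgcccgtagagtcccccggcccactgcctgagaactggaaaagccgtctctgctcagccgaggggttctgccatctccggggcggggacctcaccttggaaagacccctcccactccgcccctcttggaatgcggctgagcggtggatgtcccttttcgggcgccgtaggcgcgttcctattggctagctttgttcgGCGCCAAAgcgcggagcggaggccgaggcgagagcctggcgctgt

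Further lists of growth and stress divided in direction. Of 46 ribosome assembly genes 15 were called lower (32.6%, against 2.91% of all genes tested) and none higher. Their median was -0.37, with GRWD1 (-1.07), GNL3L (-0.97), MRTO4 (-0.96) and BOP1 (-0.88) the largest. All 19 tested heat shock and chaperonin genes were below 0 on both days, as were 47.1% of all genes tested. Of the 19, 5 were called lower (26.3%), with a median of -0.44. HSP90AA1 stood at 12.75 and 13.11 with #1 and at 11.82 and 12.22 with #10 (-0.91), DNAJB1 had -0.90, and HSPA1B, nearly identical to HSPA1A, had -0.92. Of 21 redox and NRF2 genes 2 were called lower (9.52%), NQO1 and GCLM (-0.93), and NFE2L2, which encodes NRF2, had 0.51 (adjusted p = 0.0739). Of 23 apoptosis genes 8 were called higher (34.8%, against 9.05% of all genes tested). BCL2A1, an anti-apoptotic BCL2 protein, stood at 6.69 and 6.24 against 8.76 and 10.38 (3.11), and BIRC2 had 1.34. Of 26 stress response genes 4 were called higher (15.4%) and 1, SLC7A11, lower (3.85%), with CEBPB at 1.29 and, not called, DDIT3 and ASNS at 1.01 each. Of 18 cholesterol genes 2 were called higher (11.1%, near the 9.05% of all genes tested), the sterol sensor partner INSIG1 (1.77, adjusted p = 0.0472 with 8 arrays) and HMGCS1 (0.79), with a median of 0.03, below 0 with quantile normalization. Of 13 genes that process small RNAs, 2 were called higher (15.4%, against that same 9.05%), AGO4 (5.85 and 5.58 against 6.64 and 6.58, 0.90) and DICER1 (0.62), and the median was -0.11.

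**Figure D4:**
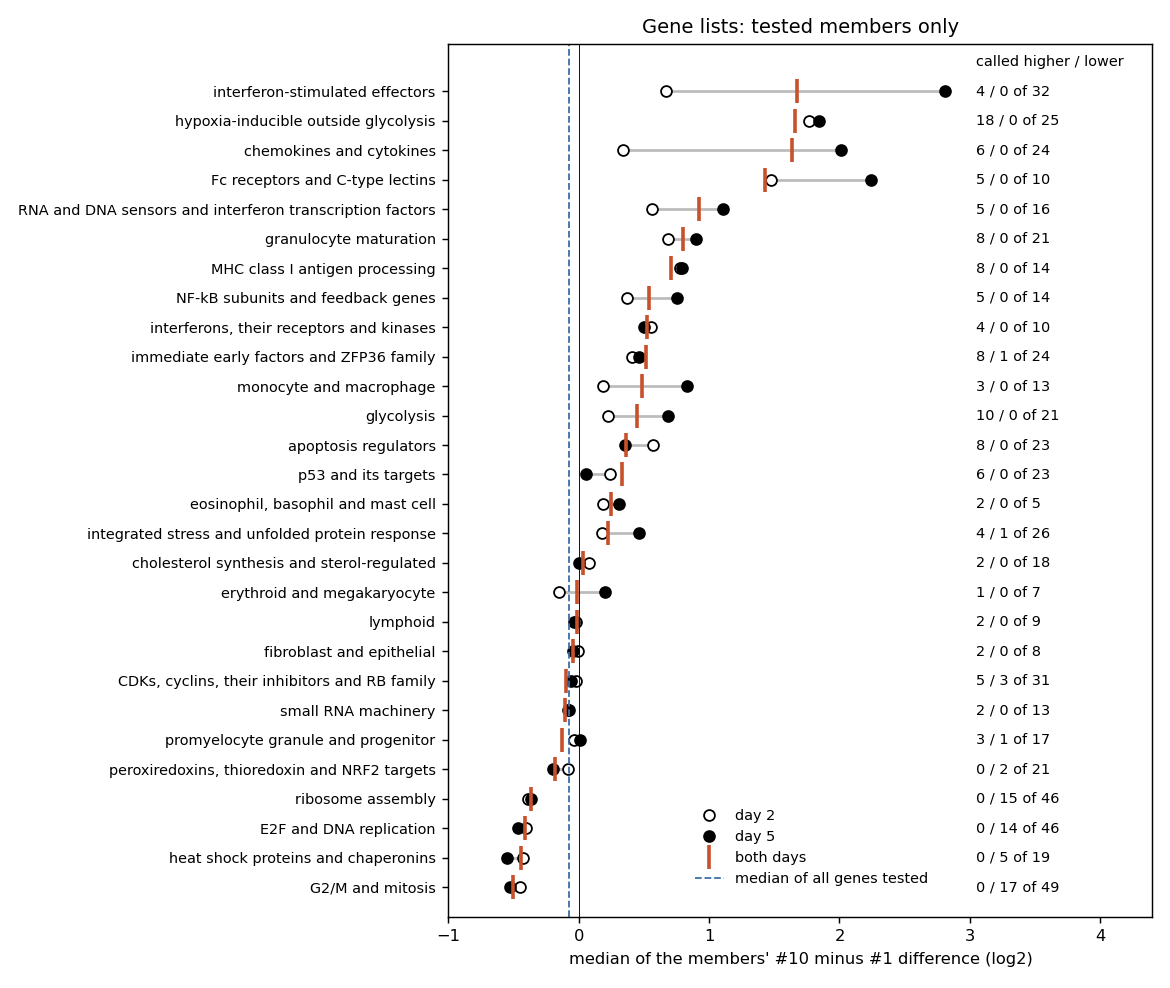
Median #10 minus #1 difference (log2) of the tested members of each of 28 gene lists at day 2 (open), at day 5 (filled) and over both days (orange bar), with the members called higher and lower at right and the median of all genes tested dashed. Interferon effectors had medians of 0.67 and 2.81 on the days, the hypoxia list 1.77 and 1.84, and the G2/M list lay lowest at -0.50.

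Day 5 added differences that day 2 did not have or widened those it had, each from 1 array per hairpin and so without a test. CCL8, a monocyte chemokine, stood at 5.10 and 4.94 with #1, at 5.11 with #10 at day 2 and at 13.19 at day 5, so the hairpin difference went from 0.01 to 8.25. CCL7, its neighbour in the chemokine family, went from 1.31 to 7.78, CXCL3 from 0.39 to 5.76 and IER3 from 1.19 to 6.30. CD163, a haemoglobin scavenger receptor of macrophages, went from -0.18 to 5.62, with 4.70 on the #10 array at day 2 and 10.27 at day 5. Because the filter took the mean of 8 arrays, 31 genes bright with #10 at day 5 and higher there by at least 2 were not tested. The largest, named after their values were seen, were PPBP (a platelet chemokine, 3.67, 3.62 and 4.38 on the other 3 arrays and 13.48 with #10 at day 5), CXCL5 (12.03), and the collagenase MMP1 (11.56) and MMP10 (10.78), all under the filter value with #1. On the shCDK2 #3 array at day 5, PPBP stood at 4.89, CXCL5 at 3.89 and CCL8 at 9.22.

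Other differences shrank or turned by day 5. GPAT3, an enzyme of triglyceride synthesis, went from 2.09 to -0.80, the retinol carrier RBP4 from 1.0 to -1.70, the lectin FCN1 from 1.23 to -0.63 and SCPEP1 from 1.89 to 0.01. EVI2A stayed above 0 on both days, at 3.19 and 1.45, and was called (adjusted p = 0.0395). Over all genes tested the day 2 and day 5 differences had an r of 0.74, as a description over genes that share arrays, and their SD was 0.51 and 0.62. No called gene had opposite signs on the days, which follows from the fit, because its error takes in the change between the days. Of the 1162 genes called higher, 632 had the wider gap at day 5.

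**Figure D5:**
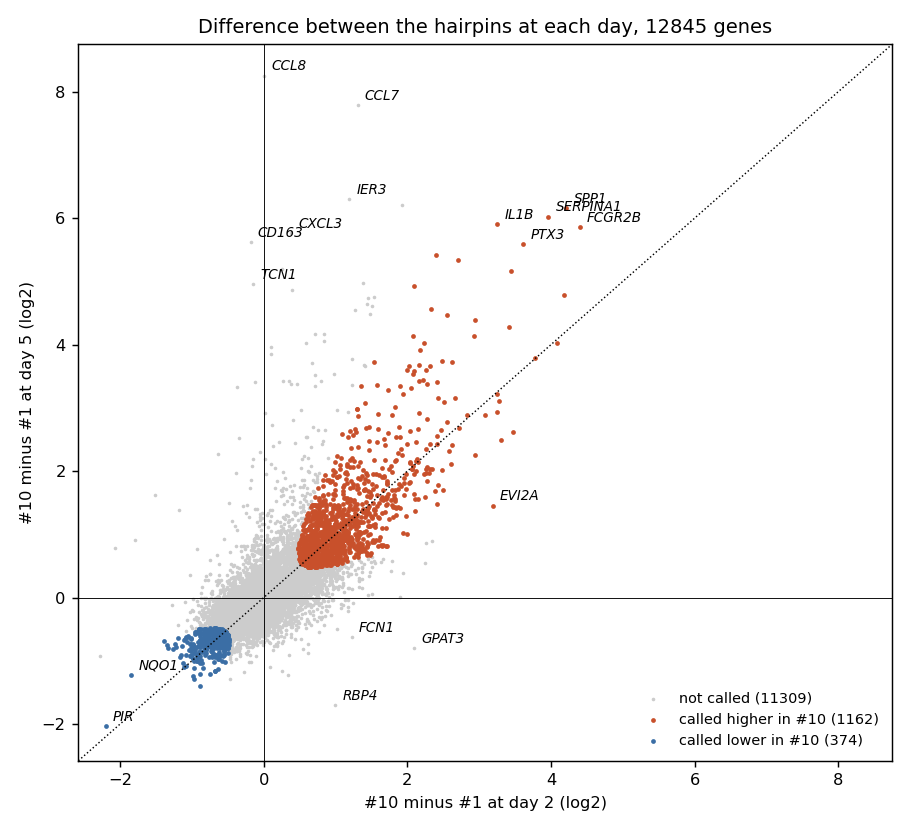
Each tested gene's #10 minus #1 difference at day 2 (x axis, log2) and day 5 (y axis, log2), with genes called higher in orange and lower in blue and equal differences on the dotted line. CCL8 and CCL7 lie near 8 on the day 5 axis, uncalled, and RBP4 and GPAT3 lie below 0 at day 5.

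The arrays outside the comparison show on which side the called genes lay, as values with no test. Of the 1162 genes called higher, the scramble array was nearer to #1 for 1081 (93.0%) at day 2 and, under its label, for 967 (83.2%) at day 5. Of the 374 called lower, it was nearer to #1 for 364 (97.3%) and 331 (88.5%). The shCDK2 #3 array was nearer to #1 for 846 (72.8%) of the genes called higher at day 2, where its CDK2 was at the scramble level. At day 5, with CDK2 at 7.72, it was nearer to #10 for 1049 (90.3%) of those called higher and 299 (79.9%) of those called lower. By these values #1 lay with the scramble arrays on most called genes, and #10 lay with #3 at day 5. These genes were chosen by their gap between #1 and #10, so the shares do not describe all genes tested. CDK2 stood at 7.78 and 7.89 with #1, and the part of CDK2 loss in these differences was not tested.

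Each list of markers of other cells had a share called higher above the 9.05% of all genes tested and none called lower, but members divided in direction. Of those tested, 9 monocyte genes lay above 0 and 4 below, against 3 and 4 erythroid and 4 and 5 lymphoid. Eosinophil genes divided 3 and 2, and fibroblast genes 4 and 4. Medians were 0.48, -0.01, -0.02, 0.25 (-0.08 over all measured) and -0.04. Summed signals were higher with #10 on both days, but a sum follows its brightest members, such as VIM (14.04 with #10 at day 2). Of 13 monocyte and macrophage genes tested, LYZ (1.43), CD68 (1.39) and CD86 were called higher (23.1%), and CD14 stood at 5.50, 5.45 and 5.76, then 10.65 with #10 at day 5. The log2 of the summed signal of the 21 measured members was 11.16 and 10.95 with #1 and 12 and 12.60 with #10. Of 7 erythroid and megakaryocyte genes CD9 was called (14.3% of the list; 8.51 and 8.25 against 11.24 and 10.93), while HBB stood between 6.49 and 6.53 and GATA1 had 0.02. The summed signal of 10 measured members was 10.42 on both #1 arrays and 11.72 and 13.84 with #10, the last holding PPBP. Of 9 lymphoid genes CD3D (9.31 and 8.96 against 11.27 and 10.85, adjusted p = 0.0424 with 8 arrays) and NKG7 (0.75) were called (22.2%), while CD3E stood between 6.00 and 6.14, and the summed signal was 11.50 and 11.44 against 12.34 and 12.19. Of 5 eosinophil, basophil and mast cell genes HDC (1.62) and PRG2 (1.30) were called (40%), with summed signals of 13.06 and 12.85 against 14.17 and 14.40. Of 8 fibroblast and epithelial genes ACTA2 (1.16) and VIM (0.79) were called (25%), while COL1A1 stood between 6.04 and 6.41, and the summed signal was 13.45 and 12.89 against 14.11 and 13.74. The part of other cells in the differences was not tested.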

How the data were processed

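Total RNA was taken with Trizol and 6 µg per array was labelled as biotinylated cRNA for Affymetrix arrays, per the labels' protocols. The authors deposited 1 log2 signal per probe set and array. Partek is the one tool named in the submitters' processing notes, with no version. How background and normalization were handled was not given in the sources used here. The log2 scale was read from the range of the deposited values.

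Of 49395 probe sets, 44994 had 1 gene symbol in the platform annotation, 1832 several and 2569 none. For each of 18132 genes the brightest probe set on average over the 8 arrays was kept. The test took the 12845 genes whose mean was above 5.83, the 40th percentile over probe sets. Differences, #10 minus #1, came from limma 3.58.1 in R 4.3.3 (lmFit and eBayes, two-sided, Benjamini-Hochberg) on 4 arrays with hairpin and day as terms, with 1 residual and 3.59 prior degrees of freedom. The script was tested on simulated data. The p-values measure a gene's hairpin difference against its change from day 2 to day 5 on these arrays, moderated by the prior. That change may be technical or a change with time. No label says that arrays came from separate cultures, so it is not a spread between cultures, and the number of arrays limits the precision.

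Named genes were CDK2, the 15 called genes with the largest difference in each direction with the same sign on both days (passing over uncharacterized loci, antisense transcripts and open reading frame symbols), up to 4 tested members of each list with the largest difference in size, and the 5 in each direction whose difference changed most between days. The comparison, the lists and the members were chosen with earlier results of these data known. Alternatives were other scalings, filters, probe set rules, sets of arrays in the fit, and leaving out each array. Promoters came from RefSeq (GRCh38.p14), 1 per gene, and 10382 genes tested had one.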

Additional observations from a re-analysis of the deposited data

Results flagged for a closer look

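Among the genes named by the rules above, 7 had opposite signs on the 2 days. Each hairpin had 1 array per day, so the change between days was not tested. The day 5 difference minus the day 2 difference was 5.80 for CD163 (-0.18 at day 2, 5.62 at day 5) and 5.10 for TCN1 (-0.14 and 4.96). It was 0.43 for CDK2 (-0.23 and 0.20). It was -2.89 for GPAT3 (2.09 and -0.80), -2.70 for RBP4 (1.0 and -1.70), -1.85 for FCN1 (1.23 and -0.63) and -1.18 for EPCAM (1.07 and -0.11). In all, 2734 of the 12845 genes tested had opposite signs. No group had enough arrays for a check of single arrays against the rest.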

How the results depend on the processing

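The count called higher stayed within 1.5 times 1162 with other scalings, filters, probe set rules and a trended prior (854 to 1232), and that called lower did so except with quantile normalization (725). Higher and lower calls numbered 142 and 5 without the day block and 41 and 1 with 8 arrays. They were 560 and 52 when the array labelled shCDK2 #3 at day 2 was dropped, and 0 and 0 with the 6 hairpin arrays. Dropping the array labelled scramble at day 5 gave the same values as the 6 hairpin arrays. The scramble array left over is then fitted by its own term, so this was not a separate check. Leaving out each compared array, in the fit on the other 7, gave 0 to 153 higher and 0 to 1 lower: 123 and 1 without #1 at day 2, 153 and 1 without #10 at day 2, and 0 and 0 without either day 5 array (smallest adjusted p 0.104 and 0.051; 600 and 1947 genes at an unadjusted p under 0.05). A hairpin's lone array is there assumed to vary like the others, and 108 and 79 genes of the day 2 runs were also called by the 4-array fit. Of 97 named genes called, 12 were called with 8 arrays, 68 on the 7 arrays left without the one labelled shCDK2 #3 at day 2, and 96 or more under quantile normalization, median centring and the trended prior.

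CDK2 turned from -0.018 to 0.022 with median centring and to 0.015 with the mean of its probe sets, and ranged from -0.64 to 0.60 with each array left out. With the mean of probe sets CD79A turned to 0.028. With 1 array left out, uncalled genes that turned ranged from -0.015 to 0.81 (SQLE), -0.11 to 1.14 (NFE2L2), -0.37 to 1.33 (EPCAM), -1.43 to 2.72 (GPAT3), -2.14 to 1.43 (RBP4), -0.25 to 2.15 (SCPEP1) and -1.10 to 1.70 (FCN1). List medians kept their sign in 26 of 28 lists under each scaling, the exceptions being lists with a median near 0. Dim genes limit what can be said of lists with many members under the filter.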
